A study of Mus musculus with 12 samples.

Results

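The 12 libraries were split into 2 sets, chosen by the measured share of counts on Rn45s, the precursor of the 18S, 5.8S and 28S ribosomal RNAs. The 6 high libraries had over 10% of their counts on Rn45s, the 6 low libraries had under 2%, and 0 libraries lay between. The cells were follicular (FO) B cells sorted from mouse spleen, either wild type (WT) or Jmjd1c knockout (KO), taken at 0 h or 2 h after adding anti-IgM, which engages surface IgM, the antigen receptor of these cells. Each of the 4 groups (WT 0 h, WT 2 h, KO 0 h, KO 2 h) had 3 libraries, 1 in each of 3 labelled batches. The labels used here do not describe the knockout allele, any Cre driver, the age or the strain. High libraries were KO 2 h and WT 2 h replicate 1 and all 4 libraries of batch 2. Low libraries were KO 0 h and WT 0 h replicate 1 and all 4 libraries of batch 3. The 2 sets held 3 KO and 3 WT libraries each. Class and batch could not be told apart within batches 2 and 3, nor class and time within batch 1.

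Ribosomal RNA is made by RNA polymerase I as a long precursor that is cut into the mature 18S, 5.8S and 28S chains, and it makes up most of the RNA of a cell. It carries no long poly(A) tail. Poly(A) selection with oligo(dT) beads, which the submitters used here, keeps messenger RNA and is meant to leave ribosomal RNA behind. Messages of the replication-dependent histone genes, and the small RNAs made by RNA polymerase III, also lack a long poly(A) tail.

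Rn45s had the following shares, with 95% Wilson intervals that cover counting error only. KO 2 h replicate 1 had 52.3% (52.3 to 52.4%) and WT 2 h replicate 1 had 24.8% (24.8 to 24.9%). The batch 2 libraries had 12.9% in KO 0 h, 12.9% in WT 0 h, 15.5% in KO 2 h and 15.02% in WT 2 h. Among low libraries the lowest was WT 2 h replicate 3 at 0.418% and the highest was WT 0 h replicate 1 at 1.09%. The values just inside the limits were thus 12.9% and 1.09%. Since these values chose the sets, they are a description. Relative to 100 other counts, Rn45s ranged from 14.8 to 109.8 in the high libraries and from 0.419 to 1.11 in the low ones.

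**Figure D1:**
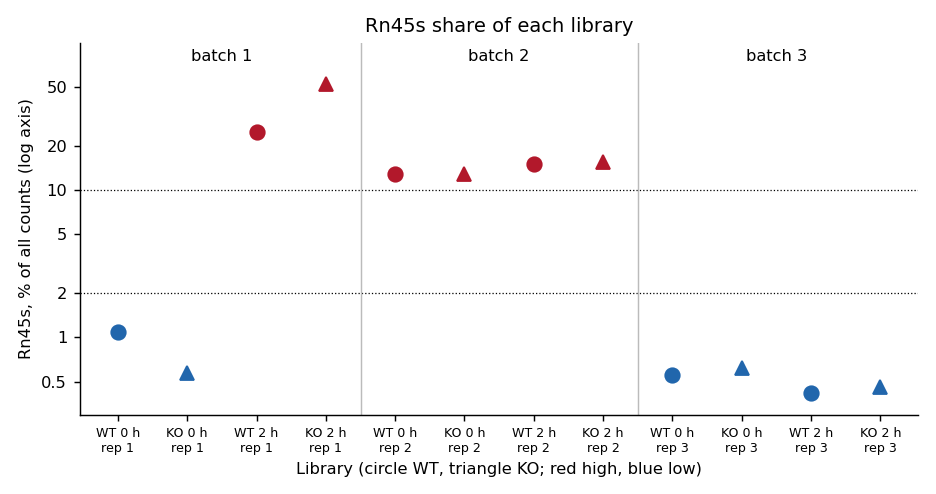
Rn45s as a percentage of all counts in each of the 12 libraries, on a log axis, ordered by batch and time (circles WT, triangles KO, red high, blue low). Dotted lines mark the limits of 10% and 2%, and batch 2 lies wholly above them, batch 3 wholly below, and batch 1 is low at 0 h and high at 2 h.

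Total counts were lower in the high set, from 5666013 to 8959165, than in the low set, from 10991386 to 14153396. A floor of 3 counts corresponded to between 0.212 and 1.15 counts per 1000000 (CPM), the highest in KO 2 h replicate 1. CPM is computed here without Rn45s and scaled with TMM factors. The targeted gene Jmjd1c was at 228 to 273 CPM in the 6 KO libraries and at 309.8 to 416 CPM in the 6 WT libraries, so that no KO library reached a WT library. Between high and low libraries it differed by 0.10 ± 0.09 (log2, SE), which did not pass the test (adjusted p = 0.615). The defining B cell markers were present in every library: Ms4a1 was at 311 CPM or more, Cd79a at 280.4 or more, Fcer2a at 254 or more and Cr2 at 130.2 or more. None of these 4 passed the test between high and low, and the log2 differences were -0.51 ± 0.17 for Ms4a1 and -0.39 ± 0.12 for Cd79a.

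A locus rich in counts that moved with Rn45s is annotated as a microRNA, and its mature sequence is shown because it is the only microRNA locus among the genes described here. RefSeq (GRCm38.p6) places mmu-miR-6236 on the plus strand at chr9:110281353-110281371, with the seed, bases 2 to 8, in capitals.
mmu-miR-6236: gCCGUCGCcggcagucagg
Among 141767 GENCODE M21 transcripts, on either strand, these letters were found in 1 gene, Mir6236 itself. The sequence of the Rn45s precursor was not available for this search, so whether it holds the same letters was not tested. The deposited counts are per gene symbol, so they do not show which part of the locus the reads covered.

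A second short sequence is shown for the histone genes, whose messages end in a stem-loop in place of a poly(A) tail. The most frequent 16-base word in the last 150 bases of the 53 tested histone genes was found by count.
histone 3′ end: AAAGGCTCTTTTCAGA
The exact word stood in 7 of the 53 tested histone genes (13.2%) and in 7 of 11770 tested genes with a GENCODE transcript (0.0595%). It was picked from these same histone genes, so its larger share there was fixed by the choice. All 7 were called higher in the high libraries, as were 48 of the 53 (90.6%), so these calls say nothing about the word. With up to 2 mismatches the word stood in 17 histone genes (32.1%) and in 20 tested genes in all (0.17%). The hexamer AATAAA, the common poly(A) signal, stood in the last 50 bases of 14.6% of the 48 histone genes called higher, of 77.1% of the 567 other genes called higher and of 75.8% of the genes not called. Annotated ends are often incomplete, and a missing match says only that the letters are not in that window.

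High libraries were compared with low libraries on the counts without Rn45s, with time and genotype as terms (edgeR quasi-likelihood test, Benjamini-Hochberg adjustment over 12340 genes). This fit took the 12 libraries as independent, although the 0 h and 2 h libraries came in pairs from 6 animals. In high libraries 640 genes were higher (5.19% of those tested) and 156 were lower (1.26%). The 2 directions differed in size. Of the higher genes 570 were over 2-fold and 187 over 16-fold, with a median of 2.81 on the log2 scale. Of the lower genes 5 were over 2-fold, with a median of -0.46. The median over all tested genes was -0.04. Within 0 h and within 2 h the high and low libraries did not overlap for 619 of the 640 higher genes, against 919 of all tested genes in that direction (7.45%), and for 127 of the 156 lower genes, against 486 (3.94%).

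Many higher genes were near the limit of detection in the low libraries. The filter asked for about 1.08 CPM in 3 libraries. Of the 640 higher genes, 281 reached that level in 3 low libraries, with a median of 1.61 on the log2 scale. The other 359 passed only through the high libraries, so that a difference was built into their selection, and their median was 3.97. Of all tested genes 11502 reached the level in 3 low libraries, and so did all 156 lower genes. In the low libraries together, 4 of the higher genes had 0 counts and 21 had 1 to 3. Fitted differences of such genes depend on the prior count, and the median of the other 615 was 2.69.

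The number of calls depended on single libraries. Against 796 with all (6.45%), it fell to 280 when KO 2 h replicate 3 was left out, to 364 when WT 2 h replicate 3 was and to 365 when WT 0 h replicate 2 was, and rose to 1600 when KO 2 h replicate 1 was. With both 2 h libraries of batch 1 left out it rose to 2407, but class and batch then differ only through the 0 h libraries of batch 1. With the batch as a block the class rests on the 2 h against 0 h difference of batch 1 set against that of batches 2 and 3. That fit called 1678 genes (13.6%), 1027 higher (8.32%) and 651 lower (5.28%), and a block by animal called 1793 (14.5%), 1110 higher (9%) and 683 lower (5.53%). Of the 640 higher genes, 540 (84.4%) were called higher with the block as well, and their set's median went from 2.81 to 4.04. Of the 156 lower genes, 7 (4.49%) were called lower with the block, and the median went from -0.46 to -0.27. The higher genes were thus mostly called with and without the block, and the lower genes mostly only without it.

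**Figure D2:**
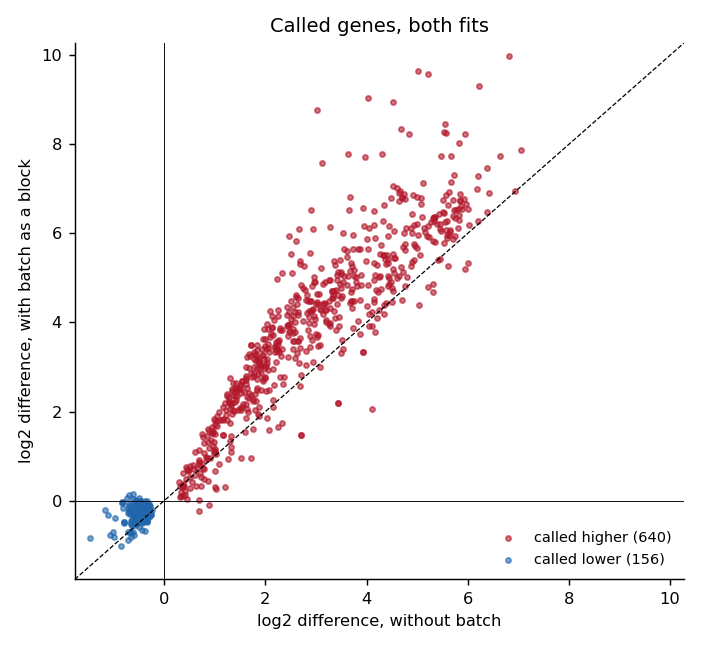
log2 difference between high and low libraries for the 796 called genes, without batch (horizontal) and with batch as a block (vertical), red for the 640 called higher and blue for the 156 called lower. Most red points lie above the dashed line of equal values, and the blue points gather near 0 on the vertical axis.

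The 2 sets also differed in how many counts the higher genes took. They held between 2.99% and 19% of the counts other than Rn45s in the high libraries, with a median of 3.47%, and between 0.455% and 0.702% in the low ones. In the high libraries most of that was on Lars2 and Mir6236, which together took 1.98% to 15.8% there and 0.0564% to 0.147% in the low ones. Without these genes the share was 0.949% to 3.21% against 0.387% to 0.555%.

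Lars2, which encodes the mitochondrial leucyl-tRNA synthetase (chromosome 9, 123366927 to 123462675), had the most counts of the higher genes. It was at 11300 CPM in the lowest high library, 14622 at the median and 92801 in KO 2 h replicate 1. In the low libraries it was at 337, 487 and 855. The sets did not overlap, and the log2 difference was 5.43 ± 0.65 (adjusted p = 0.000527). Mir6236 (chromosome 9, 110281287 to 110281409) was at 8714, 11231 and 70922 CPM against 235, 341 and 614, a log2 difference of 5.51 ± 0.65 (adjusted p = 0.000527). Both are on a list of genes known to collect reads that resemble ribosomal RNA in mouse data. The other 6 members, Filip1l, Zc3h7a, Jarid2, Cdk8, Cmss1 and Camk1d, were between -0.42 and 0.19, and none of them passed the test.

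Both of these genes kept a nearly constant ratio to Rn45s. Per 1000000 Rn45s counts, Lars2 had 75742 to 81869 in the 6 high libraries and 77428 to 90642 in the 6 low ones, over which the Rn45s level itself spanned 262-fold. Mir6236 had 58216 to 62434 and 55312 to 62731. The ratio of Lars2 to Mir6236 counts was 1.29 to 1.32 in high libraries and 1.32 to 1.49 in low ones. By comparison Actb, encoding beta-actin, had 2822 to 23431 per 1000000 Rn45s in the high libraries, and Cd79a, of the B cell receptor, had 268 to 3789.5.

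The same ratio was then computed for every gene with a mean of at least 100 counts in the high libraries. Of 7744 such genes, 43 (0.555%) kept the ratio within 1.5-fold over the 6 high libraries, against a median spread of 9.94-fold. A gene in a fixed ratio to Rn45s is bound to be higher in the high set, and all 43 were called higher, with and without the batch block. They were 19 replication-dependent histone genes and 24 others. The low libraries were not used to choose them. There the ratio, over the pooled counts, was within 2-fold of that in the high libraries for 30 of the 43. The same share over the other genes is not given here. Only 20 of the 43 reached the filter level in 3 low libraries, so the low ratios of the rest are from few counts.

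RNA components of enzymes were among the closest. Rmrp, the RNA of RNase MRP, which cuts the ribosomal RNA precursor (chromosome 4, 43492785 to 43493059), was at 382, 497 and 3230 CPM (lowest, median and highest high library) and at 8.51, 11.1 and 24.6 in the low ones. Rpph1, the RNA of RNase P, which trims transfer RNA precursors (chromosome 14, 50807447 to 50807771), was at 339, 432 and 2812 CPM against 7.22, 8.98 and 21.6. For neither did the sets overlap, and the log2 differences were 5.80 ± 0.67 and 5.86 ± 0.69. Per 1000000 Rn45s, Rmrp had 2559 to 2838 in high libraries and 1723 to 2337 in low ones. For Rpph1 the values were 2269.9 to 2471 and 1492 to 1954.

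Several of the other 24, picked here by name and not tested as a list, are described next. Mpo, encoding the myeloperoxidase of neutrophil granules (chromosome 11, 87793784 to 87804412), was at 57.7, 75.5 and 504 CPM in high libraries and at 0.858, 1.55 and 3.67 in low ones, a log2 difference of 5.88 ± 0.67 (adjusted p = 0.000527). Per 1000000 Rn45s it had 385 to 443 in high and 183 to 334 in low libraries. Prtn3, a protease of the same granules, had 114 to 124 in high and 38.9 to 141.5 in low libraries. Nfe2, a transcription factor of megakaryocytes and erythroid cells, had the narrowest ratio of all genes considered, 109 to 117 (1.07-fold), in the high libraries. In the low ones its ratio was 283 to 609.6, so it was not constant there. Cd34, a surface marker of haematopoietic progenitors, had 60.3 to 74.6 in high and 30.5 to 149 in low libraries. Gata2, a transcription factor of stem and progenitor cells, had 81.6 to 95.8 in high and 74.9 to 531 in low libraries.

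Meis1 (72.7 to 92.7 per 1000000 Rn45s in high libraries), Angpt1 (94.2 to 122), Muc13 (188 to 235), Gpr56 (375 to 421), Selp (112 to 151), F2r (74.8 to 105) and Igfbp4 (89.5 to 127) were also in this set. In low libraries the ratios spread more: Meis1 77.7 to 151, Angpt1 42.5 to 244, Muc13 191 to 518 and Gpr56 383 to 1381. Selp (335 to 836), F2r (141 to 510) and Igfbp4 (133 to 272) lay wholly above their high-library range there. Meis1 is a homeobox factor of haematopoietic stem cells, Angpt1 encodes a ligand of the receptor Tek, and Selp encodes P-selectin of platelets and endothelium. A few more genes known from stem and progenitor cells were looked up after these values were seen, so they are a description and support no theme. Kit, the receptor for stem cell factor, was at 21.3 to 181 CPM in high and 3.31 to 4.15 in low libraries, and Tal1 at 7.95 to 67.9 against 0 to 0.465. Per 1000000 Rn45s, Kit had 123 to 188 in high and 299 to 977 in low libraries. Hoxa9 was at 1.57 to 18.4 CPM in high libraries and had 5 counts in all 6 low libraries together. Mecom was at 2.36 to 22.3 CPM and had 6 counts.

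**Figure D3:**
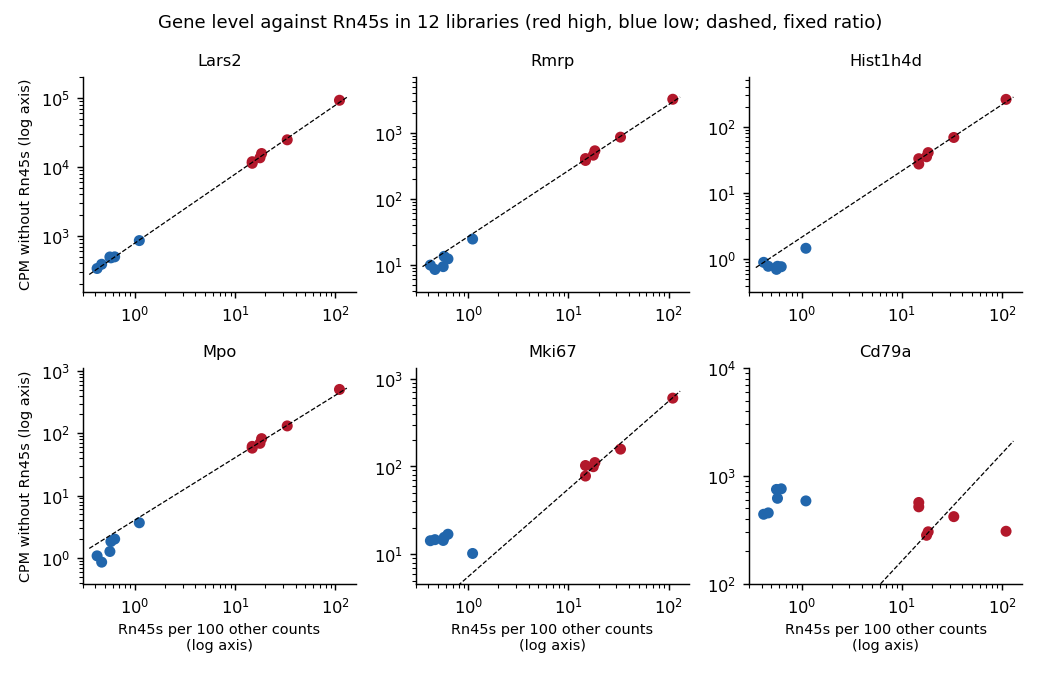
CPM of 6 genes against Rn45s per 100 other counts in the 12 libraries, both on log axes (red high, blue low); the dashed line is a fixed ratio set at the median of the high libraries. Lars2 follows the line over all libraries, Rmrp, Hist1h4d and Mpo follow it with low libraries at or slightly under it, Mki67 lies above it in low libraries, and Cd79a does not follow it.

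Genes expressed from the sex chromosomes were read after the other values were seen. By their levels batch 1 is called female here and batches 2 and 3 male, since the labels used here give no sex. Xist, the RNA that coats the inactive X in female cells, was at 702 to 1489.7 CPM in batch 1. It was at 37.4 to 61.0 CPM in the 4 male, high libraries of batch 2 and at 0.992 to 1.70 CPM in the 4 male, low libraries of batch 3. Per 1000000 Rn45s these 8 male libraries had 220.2 to 328 Xist counts. In batch 1, 4 Y-linked genes (Ddx3y, Kdm5d, Eif2s3y and Uty) had together 0.551 CPM in WT 0 h and 1.14 CPM in KO 0 h, both low. In the same batch they had 13.5 CPM in WT 2 h and 54.5 CPM in KO 2 h, both high. These values rest on 6, 13, 89 and 142 counts. Per 1000000 Rn45s they were 49.9, 197, 41.9 and 47.9. In the male libraries the same genes summed to 466 to 568 CPM in batch 2 and 429.8 to 543 CPM in batch 3. Whether RNA from another sample is part of the high libraries was not tested, and this limit applies equally to the other genes in a near-fixed ratio to Rn45s.

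The replication-dependent histone genes, which are transcribed in S phase, had the largest share of called members among the lists. Of 68 with a row, 53 were tested, 48 were higher in high libraries (90.6%), 0 were lower and 5 did not pass. The median of the 53 was 5.33 on the log2 scale, against -0.04 over all genes. Only 6 of the 53 reached the filter level in 3 low libraries, and of these 1 was called, so that most of the count was fixed by the filter. Of the mitosis and G2 genes 38 reached that level, and 19 of them were called higher. The summed level of the histone list was 565 to 4128 CPM in high and 42.2 to 102 CPM in low libraries. Hist1h4d was at 27.4, 37.9 and 258 CPM in high and 0.707, 0.786 and 1.47 in low libraries, a log2 difference of 5.84 ± 0.62 (adjusted p = 0.000527). Its ratio to Rn45s was 183 to 227 per 1000000 in high and 129 to 212 in low libraries.

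Of the 15 named higher genes 5 were histone genes. Hist1h2bl (6.21 ± 0.79), Hist1h2af (6.19 ± 0.72), Hist1h4a (6.19 ± 0.69), Hist1h3i (5.92 ± 0.62) and Hist1h4b (5.85 ± 0.745) were these 5, with log2 differences. They had 6, 6, 17, 9 and 9 counts over the low libraries together. The linker histones Hist1h1a, Hist1h1b, Hist1h1d and Hist1h1e were called too, between 5.31 and 5.83. The 5 that did not pass were Hist1h4i (1.83), Hist2h2be (-0.49), Hist1h2bc (1.46), Hist3h2a (0.51) and Hist3h2ba (-0.07). Of these 5, AATAAA stood near the end of Hist2h2be, Hist3h2a and Hist3h2ba. Histone genes are near copies of each other, and the labels do not say how the authors' counting split reads among them, so single members are uncertain.

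Among 7 tested small RNA genes of RNA polymerase III and snRNA loci, 4 were higher and 0 lower: Rpph1, Rmrp, Rnu12 (5.06 ± 0.84) and Rnu11 (4.16 ± 0.85). The last 2 are RNAs of the minor spliceosome, with 4 and 7 counts in the low libraries together. With the batch block Rnu11 did not pass (adjusted p = 0.0616). Of 69 snoRNA and scaRNA loci, which guide chemical marks on ribosomal and spliceosomal RNA, 9 were higher and 0 lower. Of the 53 that reached the filter level in 3 low libraries 1 was called (median -0.02), and the other 8 calls are of loci that passed only through the high set. The called loci included Scarna10 (5.84 ± 0.85), Scarna13 (4.14 ± 0.57), Snora74a (3.53 ± 0.48) and Snora23 (3.71 ± 0.62), and the median of the 69 was 0.08. Of 12 snoRNA host transcripts none passed, with a median of -0.00497.

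**Figure D4:**
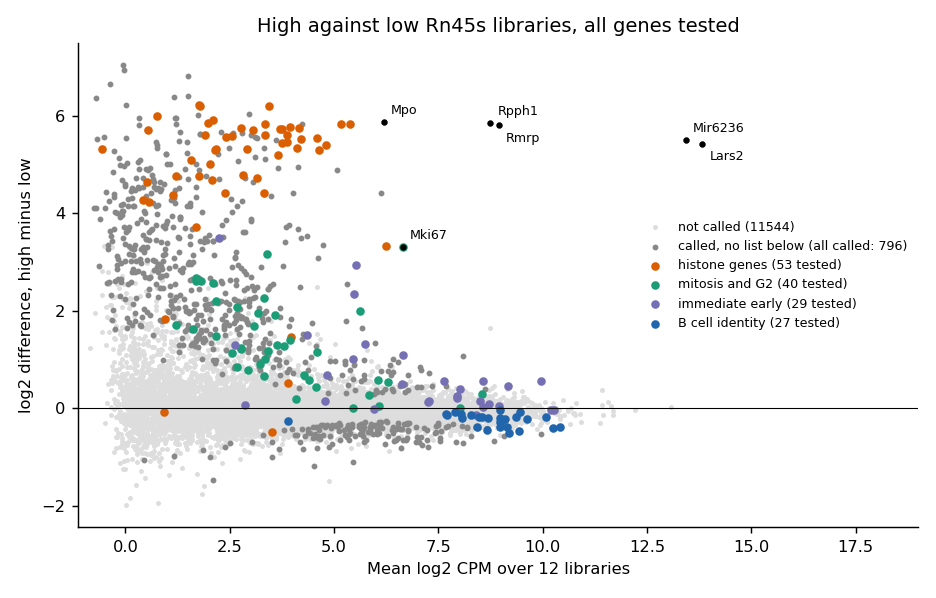
log2 difference between high and low libraries (vertical) against mean log2 CPM over 12 libraries (horizontal) for the 12340 genes tested, with 4 lists in colour and 6 genes named. Histone genes form a band near 5 to 6, mitosis genes lie between 0 and 3.3, and B cell identity genes lie at or just under 0.

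Part of the cell cycle genes passed the test, in 1 direction in each list. Of 40 mitosis and G2 genes, 21 were higher (52.5%) and 0 lower, with a median of 1.23. With the batch block 32 were higher. Mki67, a nuclear protein of dividing cells, was at 77.8, 107 and 601 CPM in high and 10.2, 14.5 and 16.9 CPM in low libraries, a log2 difference of 3.32 ± 0.46 (adjusted p = 0.001005). Its ratio to Rn45s was 488 to 703 per 1000000 in high libraries and 923 to 3356 in low ones. Cenpf (3.17 ± 0.52), Hmmr (2.68 ± 0.47) and Tpx2 (2.27 ± 0.40), which act at the kinetochore and spindle, were called. Top2a, the topoisomerase of dividing cells, was at 41.0, 54.8 and 243 CPM against 14.1, 16.9 and 19.05 CPM, a difference of 2.00 ± 0.39. The count of 21 became 13 when KO 0 h replicate 3 was left out, 7 for WT 2 h replicate 3, 6 for KO 2 h replicate 3 and 5 for WT 0 h replicate 2.

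Of 34 DNA replication and S phase genes, 11 were higher (32.4%) and 0 lower, with a median of 0.44. Uhrf1, which keeps DNA methylation through replication, was higher by 1.76 ± 0.29, Tk1, thymidine kinase, by 0.63 ± 0.11, Tyms, thymidylate synthase, by 1.93 ± 0.44 and Pole, a replicative polymerase, by 0.69 ± 0.13. Pcna, the sliding clamp, was at 88.2 to 239 CPM in high and 84.6 to 203.5 in low libraries and did not pass (0.03 ± 0.09). The count of 11 became 17 when KO 2 h replicate 1 was left out, 7 for WT 0 h or WT 2 h replicate 1, 5 for KO 0 h replicate 1, 4 for KO 0 h or WT 2 h replicate 3, and 2 for KO 2 h replicate 3 or WT 0 h replicate 2. Cdk6, a kinase of G1 progression, was the 1 called member of the 25 genes of G1 entry and quiescence (1.65 ± 0.24).

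Markers of cells other than B cells were read by list. In bulk samples, fewer cells of a type and less RNA per cell cannot be told apart. Of 13 tested neutrophil and mast cell genes, 4 were higher and 0 lower. Of the 8 that reached the filter level in 3 low libraries 1 was called, and the other 3 calls are of genes that passed the filter only through the high libraries. The called genes were Mpo, Prtn3, Elane and Ctsg, all proteins of primary granules, which are made early in the lineage. Elane, neutrophil elastase, had 176 counts in high libraries and 3 in low ones, a ratio per other count of 117 (95% counting interval 39.4 to 573). Ctsg, cathepsin G, had 76 and 1, a ratio of 151.5 (26.4 to 6062). S100a8, a protein of mature neutrophils, was at 3.53 to 26.9 CPM in high and 3.67 to 13.8 CPM in low libraries and did not pass (0.07 ± 0.50). The summed level of the list was 105 to 827 CPM in high and 25.6 to 71.6 CPM in low libraries. Ms4a3, a marker of granulocyte and monocyte precursors looked up after these values were seen, was at 3.07 to 24.6 CPM in high and 0 to 0.184 CPM in low libraries.

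Of 8 tested stromal and endothelial genes, 6 were higher and 0 lower. Of these 8 only 2 reached the filter level in 3 low libraries and 1 of them was called, so that most of the count was fixed by the filter. Tie1, an endothelial receptor kinase, was at 8.09, 10.1 and 60.7 CPM in high and 0, 0.203 and 0.459 CPM in low libraries. The others were Col4a1 (5.16 ± 0.56), Vwf (4.75 ± 0.73), Pdgfrb (4.69 ± 0.72), Tek (4.35 ± 0.65) and Eng (1.87 ± 0.50). Another 16 of the 24 members with a row did not pass the filter, among them the endothelial genes Cdh5, at 1.15 CPM or less, and Kdr, at 1.15 CPM or less, and 6 members had 0 counts in every library. The summed level was 107 to 365 CPM in high and 76.6 to 273 CPM in low libraries. The part of such cells in the other differences was not tested.

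Of 15 tested erythroid and platelet genes, 10 were higher and 0 lower. Of these 15 only 4 reached the filter level in 3 low libraries, with 1 called and a median of 0.19, and the other 11 were tested only through their level in the high set. Without WT 0 h replicate 2 the count was 6, and with the batch block it was 5 higher and 1 lower. Slc4a1, the anion exchanger of red cells, was at 1.83, 3.26 and 7.29 CPM in high and 0, 0.0387 and 0.35 CPM in low libraries. The globin genes were called but did not keep a fixed ratio: Hbb-bs had 11.8 to 97.4 counts per 1000000 Rn45s in the high libraries. Its values equal those of Hbb-b1, and those of Hba-a1 equal those of Hba-a2, so each pair is 1 measurement. Pf4, of platelets, was at 1.15 CPM or less and Klf1, of erythroid precursors, at 1.54 CPM or less. Of 27 T and NK cell genes 1 was higher, Nkg7 (1.59 ± 0.38). With the batch block 0 were higher and 1 lower, and Nkg7 was lost in 5 of the 12 fits that left out 1 library (adjusted p up to 0.111, without KO 2 h replicate 3). Of 14 tested macrophage and dendritic cell genes none passed.

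Other named genes with large differences were Ptk7, a receptor-like kinase without activity, Nwd1, Dock1, an activator of Rac, Leprel2, a collagen prolyl hydroxylase, and Kcnk12, a potassium channel subunit. Ptk7 was at 3.35, 3.98 and 25.7 CPM in high libraries and had 3 counts over the low ones, a ratio of 144 (48.7 to 705). Nwd1 (6.41 ± 0.74), Dock1 (6.01 ± 0.75), Leprel2 (5.96 ± 0.77) and Kcnk12 (5.95 ± 0.91) had 4, 6, 5 and 4 counts over the low libraries. In all, 427 higher genes met the rule for naming, and the 15 largest are named here. All 15 were called in each of the 12 fits that left out 1 library. They were picked as the largest called differences, and all but Mpo and Rpph1 passed the filter only through the high libraries. Staying called was thus largely built into their selection.

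Genes of the early response to receptor signals were split. Of 29 immediate early and activation genes, 10 were higher (34.5%, against 5.19% of all tested genes) and 0 lower, and the median was 0.40. Among the 28 that reached the filter level in 3 low libraries 9 were called higher, with a median of 0.33. Fosb was at 50.4, 54.5 and 240.3 CPM in high and 6.31, 7.10 and 16.5 CPM in low libraries, a difference of 2.95 ± 0.49 (adjusted p = 0.0034). Fos, its AP-1 relative, was at 48.8, 52.5 and 194 CPM against 9.86, 11.2 and 22.9 CPM. Ier3 (3.49 ± 0.46), Fosl2 (1.32 ± 0.20), Nr4a2 (1.51 ± 0.25), Atf3 (1.31 ± 0.23) and the phosphatase gene Dusp1 (1.02 ± 0.24) were also higher. Ier3 passed the filter only through the high libraries, so that a difference was built into its selection. Egr1 (0.40 ± 0.17), Nr4a1 (0.56 ± 0.22) and Myc (0.46 ± 0.19), which respond to the B cell receptor, did not pass. With the batch block 5 members were higher and 5 lower. The count of 10 became 6 when KO 0 h, KO 2 h or WT 2 h replicate 3, or WT 0 h replicate 2, was left out alone.

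Of 18 germinal centre genes, 6 were higher (33.3%) and 1 lower (5.56%), and 5 of the 6 are described. Over all tested genes 5.19% were higher and 1.26% lower. Among the 17 that reached the filter level in 3 low libraries 5 were higher and 1 lower. Gcsam was at 2.2045, 3.05 and 14.6 CPM in high and 0, 0.266 and 0.429 CPM in low libraries. This gene passed the filter only through the high libraries, so that a difference was built into its selection. S1pr2, a receptor that holds B cells in the germinal centre, was higher by 2.64 ± 0.49, Nuggc by 2.01 ± 0.55, Mef2b by 1.36 ± 0.36 and Efnb1 by 0.92 ± 0.24. Cd38, an NAD-consuming surface enzyme that mouse germinal centre B cells reduce, was lower by 0.69 on the log2 scale (-0.69 ± 0.16), though with the batch block it was at -0.08 (adjusted p = 0.874). The 6 became 3 when KO 0 h or WT 2 h replicate 1 or 3 was left out, 2 for KO 2 h replicate 3 and 1 for WT 0 h replicate 2. Of 20 marginal zone and B1 cell genes 2 were higher and 2 lower: Plscr1 and Ahnak, and Bhlhe41 and Sspn. Ahnak turned from 0.89 to -0.11 with the batch block.

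**Figure D5:**
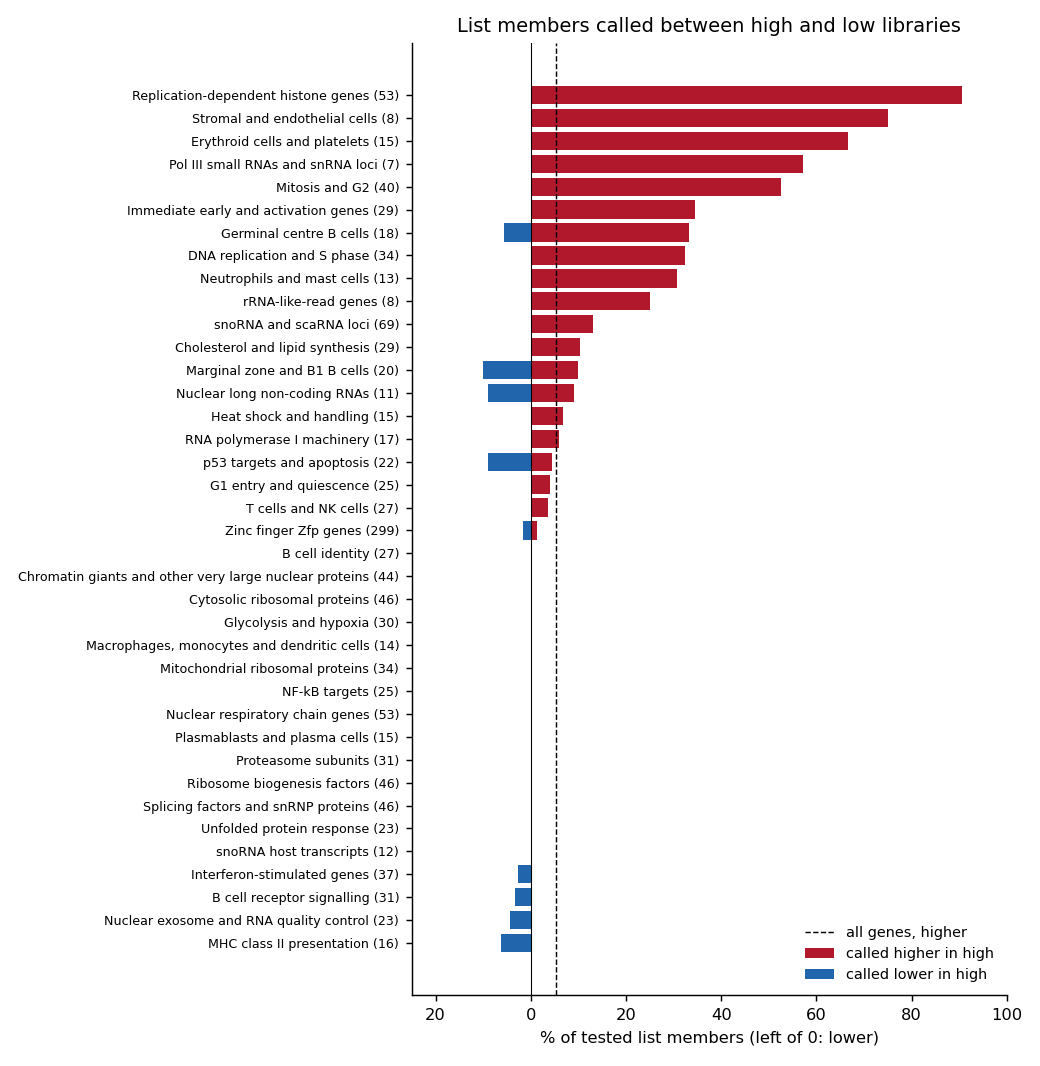
Percentage of the tested members of each list called higher (red, to the right) or lower (blue, to the left) in high libraries; the number tested is in brackets and the dashed line marks the 5.19% of all genes called higher. Histone genes, at 90.6%, stand at the top, and of these lists, each with at least 5 tested genes, 14 have no called member and 4 have lower calls only. The percentages include members that passed the filter only through the high libraries, which were most of the histone genes.

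Most programmes of the B cell had few or no calls. Of 27 B cell identity genes none passed, with a median of -0.20. The same held for 46 cytosolic ribosomal protein genes (median -0.04), 34 mitochondrial ribosomal protein genes (0.01), 53 nuclear genes of the respiratory chain (-0.04), 31 proteasome genes (-0.05) and 46 splicing genes (-0.03). It also held for 25 NF-kB targets, 30 glycolysis genes, 23 genes of the unfolded protein response, 15 plasma cell genes and 44 genes of very large nuclear proteins. Of 17 genes of the RNA polymerase I machinery, which makes Rn45s, 1 was called. It was Ptrf (5.48 ± 0.73), which also encodes a coat protein of caveolae, and the median of the 17 was -0.01. Ptrf passed the filter only through the high libraries, and of the 16 that reached the filter level in 3 low libraries none was called. Of 46 ribosome biogenesis genes none passed (median 0.04). With the batch block 31 of them were lower (median -0.64), while in batches 2 and 3 alone 30 were higher (median 0.28), where 30.4% of all genes were called, 16.4% higher and 14% lower.

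The remaining lists had between 0 and 9 called members. Of 29 cholesterol and lipid synthesis genes 3 were higher and 0 lower, namely the desaturases Fads2 (3.84), Fads1 (1.63) and Scd2 (0.70), while the median of the list was -0.22. Of 15 heat shock genes 1 was higher, the co-chaperone gene Bag3 (1.71). Of 22 p53 targets 1 was higher, Cdkn1a (1.43), which encodes the cell cycle inhibitor p21, and 2 were lower, Ei24 (-0.33) and Ccng1 (-0.43). Of 11 nuclear long non-coding RNAs Kcnq1ot1 was higher (0.47) and Ftx lower (-0.48). A single member was lower in each of the next lists: Zcchc7 of RNA quality control (-0.31, of 23), Cd81 of the B cell receptor complex (-0.31, of 31) and the cathepsin gene Ctss of class II presentation (-0.40, of 16). Of 299 Zfp zinc finger genes 4 were higher and 5 lower, with a median of -0.12. The immunoglobulin constant list held 1 tested gene, Igj, which did not pass, and 0 mitochondrially encoded genes had a row.

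The 156 lower genes differed by smaller amounts. The largest, Scn8a, a sodium channel subunit, was at 0.384, 2.08 and 2.43 CPM in high and 3.76, 5.31 and 9.05 CPM in low libraries, a log2 difference of -1.47 ± 0.31 (adjusted p = 0.0142). Trim30b was at 7.52, 11.0 and 18.3 CPM against 20.6, 27.3 and 54.1 CPM (-1.18 ± 0.20), and Trim34a at 43.8, 58.7 and 91.1 against 89.8, 118 and 184 (-0.82 ± 0.17). Several others are of families with interferon-inducible members: Trim30a (-0.69 ± 0.17), Phf11b (-0.83 ± 0.18) and the PYHIN genes Pydc3 (-0.81 ± 0.22) and Pyhin1 (-0.68 ± 0.17). Of the 37 tested genes of the interferon-stimulated list, which holds Trim30a, that gene was the 1 called, and the median was -0.25. With the batch block the median was 0.36, with 3 members higher and 0 lower.

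The remaining named lower genes were Hcrtr2 (-1.005 ± 0.25), a neuropeptide receptor, Mcoln3 (-0.99 ± 0.24), a lysosomal cation channel, Cacnb4 (-0.98 ± 0.26), a calcium channel subunit, Pgpep1l (-0.84 ± 0.20), Clec2i (-0.72 ± 0.17), a C-type lectin, Nicn1 (-0.71 ± 0.19), AB124611 (-0.69 ± 0.14) and Cd38. None of the 15 passed with the batch block, where Trim34a was at -0.04, Phf11b at -0.06 and Pgpep1l at -0.04. Of these 15 only Trim30b was called in each of the 12 fits that left out 1 library. For the other 14 the highest adjusted p lay between 0.0565, for Trim34a without KO 2 h replicate 3, and 0.175, for Pydc3 without WT 0 h replicate 2.

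The called genes were also described by transcript length and base content, using the longest GENCODE M21 transcript of the 95.4% of tested genes found there by symbol. By length, 4.75%, 3.70%, 4.76%, 4.88% and 8.03% of genes were higher in 5 classes of equal size from the shortest to the longest, the last from 5166 bases. By GC content the share higher rose in steps, from 3.02% in the lowest class to 3.99%, 4.80%, 6.46% and 7.86%. Lower genes were 2.46% of the lowest class by GC and between 0.765% and 1.10% of the others. Medians over all genes by class were between -0.11 and 0.03.

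Whether high and low libraries differed by time was tested with the product of class and time. The edgeR test called 0 genes (0%), with 432 at an unadjusted p under 0.05, and DESeq2 called 1. At 0 h alone 165 genes were called (1.4%), 150 higher (1.27%) and 15 lower (0.127%), and 134 of the 150 were among the 640. At 2 h alone 0 were called (0%), with 1136 at an unadjusted p under 0.05. There Mpo differed by 7.62 (adjusted p = 0.127), against 4.80 at 0 h (adjusted p = 3.35e-05). Whether high and low differed by genotype was tested the same way, and 1 gene was called (0.0081%), Il9r, the receptor for interleukin 9. Its KO difference was 1.64 lower than its WT difference on the log2 scale (-1.64 ± 0.20, adjusted p = 0.043), with 92 genes at an unadjusted p under 0.05.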

How the data were processed

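Poly(A) RNA was sequenced in 12 libraries, in 4 groups of 3, from sorted splenic FO B cells, with a kit of the NEBNext Ultra type per the labels' protocols. Reads were aligned with STAR to mm10 per the submitters' processing notes. For the version, counting tool, strand setting, handling of multi-mapping reads and annotation, nothing was given in the sources used here. The authors deposited raw whole-number counts per gene symbol, 1 file per library, with 24046 symbols. Library names carry 6 numbers, each shared by a 0 h and a 2 h library and taken here as the animal. The main fit took the 12 libraries as independent, without a term for the animal. Its p-values measure the spread between libraries and not that between animals. In batches 2 and 3 the class was constant within each animal.

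Rn45s was divided by the total and libraries over 10% or under 2% were set as high and low. Without the Rn45s row, genes were filtered with filterByExpr on the 4 groups (12340 left), scaled with TMM (factors 0.96 to 1.04) and tested with edgeR 4.0.16 (R 4.3.3; quasi-likelihood, additive terms for genotype, time and class; two-sided; adjusted p under 0.05). SE comes from the F statistic. The method was tested on simulated data. Alternatives were a batch or animal block, RLE factors, no scaling, Rn45s kept, DESeq2 1.42.0, other filters, covariates and sample subsets, and each library left out. The fixed-ratio description used a minimum mean of 100 counts and a maximum spread of 1.5-fold, set after the data were seen. These are PCR reads with no molecular identifiers, hence not independent molecules, and floors and intervals cover counting error only. Positions come from RefSeq (GRCm38.p6), where 94.4% of tested symbols were found.

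The batch number pairs the samples because the labels name it as a batch. Library deviations from group means correlated between -0.39 and 0.86 across genes for 18 pairs with the same number, and between -0.74 and 0.58 for 36 pairs with different numbers. No pair within a group was a duplicate (chi-square per degree of freedom 13.3 to 234).

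Named genes were up to 15 per direction with the largest log2 difference among called genes whose mean log2 CPM reached 1, no overlap of high and low within each time and the same sign with the batch block. Predicted, immunoglobulin variable, date-named and Y-linked genes and Xist were left out (11 higher, 10 lower). Up to 4 members of each list by p, Jmjd1c, Mki67 and other members of described lists were named too. The 2 sets of libraries, the 40 gene lists and the rules were chosen with earlier results of these data known. Some results are not reported here.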

Additional observations from a re-analysis of the deposited data

Results flagged for a closer look

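In 62 sets of 6 values (Rn45s and the 30 named genes, in the high and in the low libraries), 21 had a library farther from the others than Dixon's 95% limit allows, where chance gives about 1 in 20 for independent values. These are not independent: Rn45s chose the sets, and the genes were named for their difference between them. Of the 21, 17 were KO 2 h replicate 1 within the high set, the library with Rn45s at 52.3%, and they are not separate departures. There the values in CPM were 25.7 for Ptk7, 27.6 for Nwd1, 20.3 for Elane, 30.7 for Hist1h2bl, 33.01 for Hist1h2af, 88.7 for Hist1h4a, 60.7 for Tie1, 26.9 for Dock1, 17.7 for Leprel2, 22.6 for Kcnk12, 39.9 for Hist1h3i, 504 for Mpo, 2812 for Rpph1, 36.5 for Hist1h4b and 138 for Prtn3. In the same library Scn8a was the lowest of the high set, at 0.384 CPM. Among low libraries WT 0 h replicate 1 stood apart with Rn45s at 1.09%, Rpph1 at 21.6 CPM and Kcnk12 at 0.276 CPM, the last resting on 3 counts. WT 0 h replicate 3 stood apart in Trim30a, at 269 CPM.

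Il9r differed between genotypes in its high against low difference, by -1.64 on the log2 scale (KO minus WT, adjusted p = 0.043 in edgeR). In KO it was at 33.8, 23.03 and 22.9 CPM in the high libraries and at 78.6, 94.4 and 63.8 CPM in the low ones. In WT it was at 117, 63.0 and 62.0 CPM in the high and 85.3, 99.9 and 48.2 CPM in the low ones. Each genotype's values come from 3 animals, and the KO sets do not overlap while the WT sets do. In each genotype the batch 2 animal gave both its libraries to the high set and the batch 3 animal both to the low set. The batch 1 animal gave its 0 h library to the low and its 2 h library to the high set. The 3 values of a set are thus not independent, and the sets differ in their mix of times.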

How the results depend on the processing

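Against 796 calls between high and low libraries, the count was 1678 with the batch as replicate block, 1793 with the animal as block, 1354 with DESeq2, 1358 without a filter on low counts, 1438 with log2 of the Rn45s share in place of the class, 2407 with the 2 h libraries of batch 1 left out and 3749 in batches 2 and 3 alone. It was 165 at 0 h alone, 0 at 2 h alone, 389 in WT alone and 0 in KO alone (793 at an unadjusted p under 0.05; DESeq2 was not run on these subsets), and 280 to 1600 with each library left out. RLE factors, no scaling, Rn45s kept, the filter of 1 CPM in 6 libraries, 4 group means and class alone gave 615 to 824. Over these settings with calls the share called higher was 54% to 97.7%. The class by time count of 0 became 1 with DESeq2, 1 without a filter and 8 with the 2 h libraries of batch 1 left out, and stayed 0 with each library left out. The class by genotype count of 1 became 2 without a filter, and 0 to 1 with each library left out: 1 without KO 0 h or KO 2 h replicate 1, otherwise 0. The genes followed singly were picked because they were called with all libraries. Of these, 82 of 98 higher and 1 of 24 lower were called in every fit that left out 1 library. Ahnak turned to -0.11 with the batch block (adjusted p = 0.881) and -0.12 with the animal block (adjusted p = 0.832). The cause of these changes was not tested. KO 2 h replicate 1, with 2700912 counts other than Rn45s, limits detection most.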
